A study of Sus scrofa with 6 samples.

Results

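The genes described here belong to the Prader-Willi and Angelman imprinted region of the pig and were chosen by name and position: the protein-coding genes SNRPN, NDN, MAGEL2 and UBE3A, and the long non-coding RNAs ENSSSCG00000048420 and ENSSSCG00000042919, which have no symbol and lie downstream of SNRPN. They are 6 of the 31908 gene rows in the deposited table. Their levels were measured by poly(A) RNA sequencing in 3 pig (Sus scrofa) embryonic stem cell lines grown in FIW medium, all labelled wild type. PA_1 and PA_3 were derived from parthenogenetic embryos, which by descent carry maternal chromosomes only, and IVF_1 came from in vitro fertilisation. There were 2 libraries per line, or 6 altogether. The series asked about the identity of such lines. Nothing in the labels says that a line's libraries were separate cultures, so p-values measure the spread between these libraries, which may be technical. There is 1 line from a fertilised embryo, so that each comparison is between lines, and the origin of the embryo and the individual line cannot be told apart.

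The region is named for a pair of human disorders. In human and mouse, SNRPN, NDN, MAGEL2 and the long non-coding transcript that runs on from SNRPN are read from the paternal chromosome, because an imprinting centre at SNRPN is methylated on the maternal one. Loss of the paternal set causes Prader-Willi syndrome. The long transcript hosts clusters of C/D box small nucleolar RNAs and, in neurons, continues antisense to UBE3A and silences the paternal copy. UBE3A encodes a ubiquitin ligase whose loss from the maternal chromosome causes Angelman syndrome, and outside neurons it is read from both copies.

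Library totals ran from 15248306 to 28575817 counts. Levels are compared between lines in CPM after TMM scaling (counts relative to the scaled library total, from edgeR), and between genes in the authors' TPM, which takes gene length into account. Where neither library of a line had a read, the level was bounded at 3 counts for that line, equal to 0.0627 CPM in PA_1, 0.0599 CPM in PA_3 and 0.0942 CPM in IVF_1. Calls are edgeR quasi-likelihood tests with Benjamini-Hochberg adjustment over 15197 genes, at a threshold of 0.05. Limits and intervals for single levels cover counting error only. A bound on a fold sets the observed level of the other line against the limit of 3 counts and takes the observed reads as exact.

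All 6 genes passed the filter on low counts, but 4 of them were under its minimum of 0.47 CPM in every PA_1 and PA_3 library and passed through IVF_1 alone. The levels of those 4 in the PA lines are therefore described one by one, and their number is not used as support. Their adjusted p-values against IVF_1 are likewise given as a description. Against IVF_1, 5 of the 6 were called lower in PA_1, where 16.1% of all tested genes were called lower, 15.3% higher and 31.4% either way. The same number, 5 of the 6, was called lower in PA_3, where 26.2% of all tested genes were called lower, 25.9% higher and 52.1% either way. UBE3A was the exception in both. The PA_1 and PA_3 comparisons share the IVF_1 libraries.

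**Figure D1:**
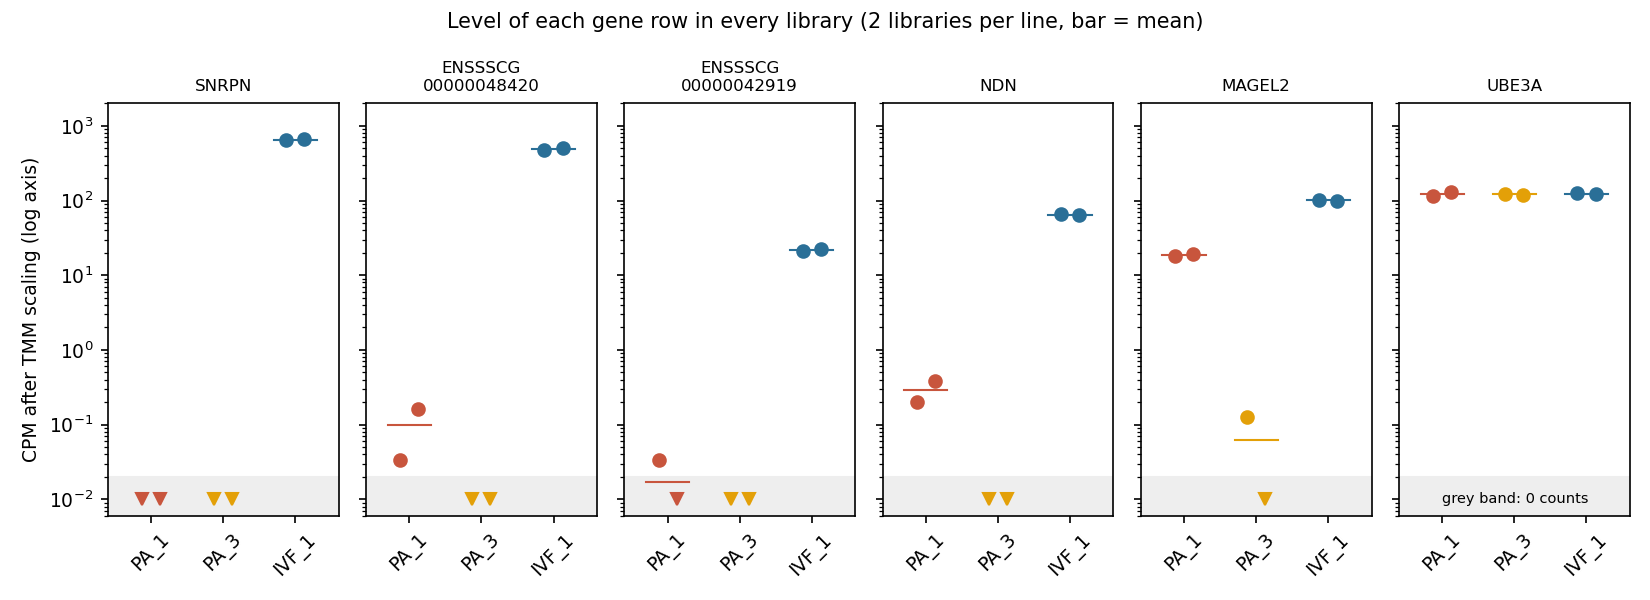
CPM after TMM scaling (log axis) of the 6 genes in each of the 2 libraries of PA_1, PA_3 and IVF_1, with circles for libraries, triangles in the grey band for libraries with 0 counts and bars for means. SNRPN had 0 counts in all 4 PA libraries, MAGEL2 stood at 18.8 CPM in PA_1, and UBE3A lay between 116.01 and 129.2 CPM in every library.

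SNRPN encodes the SmN protein, which takes the place of SmB in the ring of Sm proteins on spliceosomal small nuclear RNAs, most of all in brain. It lies on the unplaced scaffold AEMK02000602.1 at 104535 to 142577 (build Sscrofa11.1, minus strand, 4 annotated transcripts). It had 0 and 0 counts in PA_1, 0 and 0 counts in PA_3, and 10602 and 10093 counts in IVF_1. No SNRPN read was thus counted in any PA library, while the IVF_1 libraries stood at 640 and 660 CPM. The level was at least 10365-fold lower in PA_1 than in IVF_1 and at least 10856-fold lower in PA_3 than in IVF_1. These bounds put SNRPN at no more than 0.00965% of the IVF_1 level in PA_1 and 0.00921% in PA_3 (edgeR adjusted p = 1.2e-17 and 8.6e-18). In IVF_1 SNRPN was an abundant message, at 451.5 ± 2.21 TPM (SD, n = 2 libraries), and ranked 248 of the 15197 tested genes.

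ENSSSCG00000048420 is an annotated long non-coding RNA on the same strand of the scaffold, at 69474 to 104509, whose upstream end lies 25 bases past the end of SNRPN. It had 1 and 3 counts in PA_1, 0 and 0 counts in PA_3, and 7789 and 7811 counts in IVF_1. The PA_1 reads came to 0.0171% of the IVF_1 level (95% exact counting interval 0.00465 to 0.0437%). The fitted log2 fold change in PA_1 against IVF_1 was -12.42 (SE 0.176, edgeR adjusted p = 1.2e-17). PA_3 lay at least 8183-fold below IVF_1 (edgeR adjusted p = 8.6e-18). The IVF_1 libraries held 95.4 and 104 TPM, less than SNRPN per length by a factor of 4.72 in replicate 1 and 4.34 in replicate 2.

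ENSSSCG00000042919 is a long non-coding RNA with 10 annotated transcripts at the far end of the same strand, at 397 to 32387 of the scaffold. It had 1 and 0 counts in PA_1, 0 and 0 counts in PA_3, and 347 and 344 counts in IVF_1. The lone PA_1 read corresponded to 0.0963% of the IVF_1 level, with an exact 95% counting interval of 0.00243 to 0.538% (edgeR adjusted p = 8.2e-12). PA_3 lay at least 362-fold below IVF_1 (edgeR adjusted p = 2.3e-12). It was the lowest of the 6 in IVF_1, with 11.09 and 12.01 TPM, near the middle of all tested genes at rank 7554.

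The scaffold carries 22 gene rows, of which 21 lie on the minus strand with SNRPN. Besides SNRPN and the long non-coding RNAs there are 18 small nucleolar RNA rows. Of these, 16 are copies of SNORD116, the array whose loss in human is tied to the core of Prader-Willi syndrome, 1 is SNORD107 and 1, ENSSSCG00000033659, has no symbol. SNORD107 lies inside ENSSSCG00000048420, 12 of the SNORD116 rows lie inside ENSSSCG00000042919 and the other 4 lie in the 37.1 kb between the long non-coding rows. From the start of SNRPN to the far end of ENSSSCG00000042919 the rows span 142 kb. All 18 small nucleolar RNA rows had 0 counts in all 6 libraries. Libraries were made from poly(A) RNA, which leaves out most processed small nucleolar RNA, so these zeros give no level for them.

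**Figure D2:**
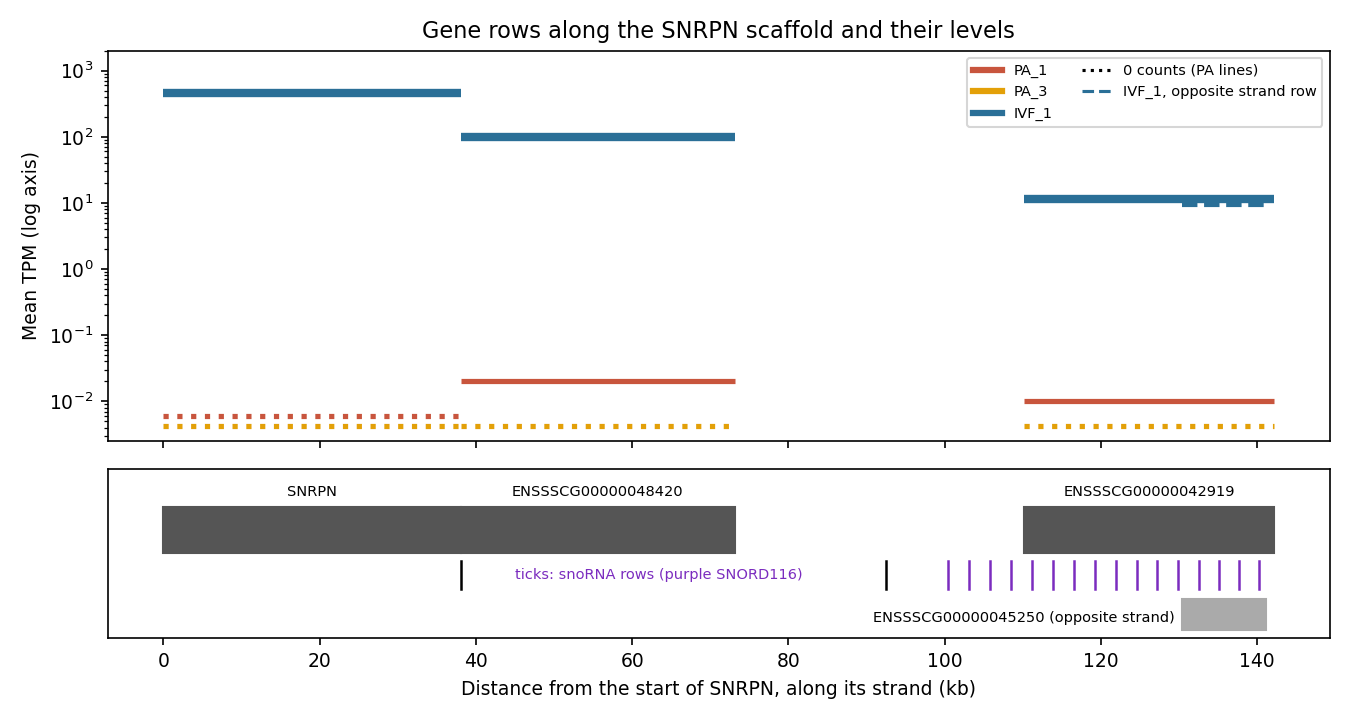
Upper panel, mean TPM (log axis) of PA_1, PA_3 and IVF_1 over the span of each row with counts on the SNRPN scaffold, against distance from the start of SNRPN along its strand in kb, with dotted lines for 0 counts drawn below the lowest measured level and a dashed line for the opposite-strand row in IVF_1. The lower panel maps the rows, with ticks for small nucleolar RNAs. Mean TPM in IVF_1 was 451.5 for SNRPN, 99.9 for ENSSSCG00000048420 and 11.55 for ENSSSCG00000042919.

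The single row of the scaffold on the opposite strand, the long non-coding RNA ENSSSCG00000045250, lies at 1395 to 12170, with all of its 10776 bases inside ENSSSCG00000042919. It had 0 and 0 counts in PA_1, 0 and 0 counts in PA_3, and 20 and 24 counts in IVF_1. Its level was at least 22-fold lower in PA_1 and at least 23-fold lower in PA_3 than in IVF_1 (edgeR adjusted p = 3.4e-05 and 1.1e-05). The row passed the filter through IVF_1 alone, so these p-values are given as a description and not as support. How the authors' counting treated strand is not stated in the sources used, so reads of this row and of ENSSSCG00000042919 cannot be told apart.

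NDN encodes necdin, a MAGE family protein that restrains the cell cycle and supports neuron differentiation. It is a gene with 1 annotated transcript on chromosome 1 at 142412565 to 142414240 (plus strand). It had 6 and 7 counts in PA_1, 0 and 0 counts in PA_3, and 1090 and 967 counts in IVF_1. In CPM this was 0.203 and 0.382 in PA_1, against 65.8 and 63.2 in IVF_1. The PA_1 level was 0.421% of IVF_1 (exact 95% counting interval 0.224 to 0.721%), with a log2 fold change of -7.86 (SE 0.195, edgeR adjusted p = 4.2e-14). PA_3 lay at least 1079-fold below IVF_1 (edgeR adjusted p = 1.2e-14).

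MAGEL2, 34.4 kb beyond NDN at 142448689 to 142454697 of chromosome 1 (plus strand, 1 transcript), encodes a MAGE protein that works with a ubiquitin ligase and the WASH complex in sorting proteins at endosomes. It had 539 and 355 counts in PA_1, 3 and 0 counts in PA_3, and 1672 and 1522 counts in IVF_1. The PA_1 libraries stood at 18.3 and 19.3 CPM and the IVF_1 libraries at 101 and 99.5 CPM, so that the groups did not overlap and each was narrow. MAGEL2 in PA_1 was at 18.6% of IVF_1 (exact 95% counting interval 17.3 to 20.1%), with a log2 fold change of -2.42 (SE 0.103, edgeR adjusted p = 2.7e-11). In PA_3 the 3 reads came to 0.0597% of IVF_1 (exact 95% counting interval 0.0123 to 0.175%, edgeR adjusted p = 6e-16). MAGEL2 was the one gene of the 5 called lower with a level above 1% of IVF_1 in a PA line. In PA_1 it held 7.97 ± 0.106 TPM and ranked 8775 of 15197, against 41.75 ± 0.113 TPM and rank 3241 in IVF_1 (SD, n = 2 libraries each).

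**Figure D3:**
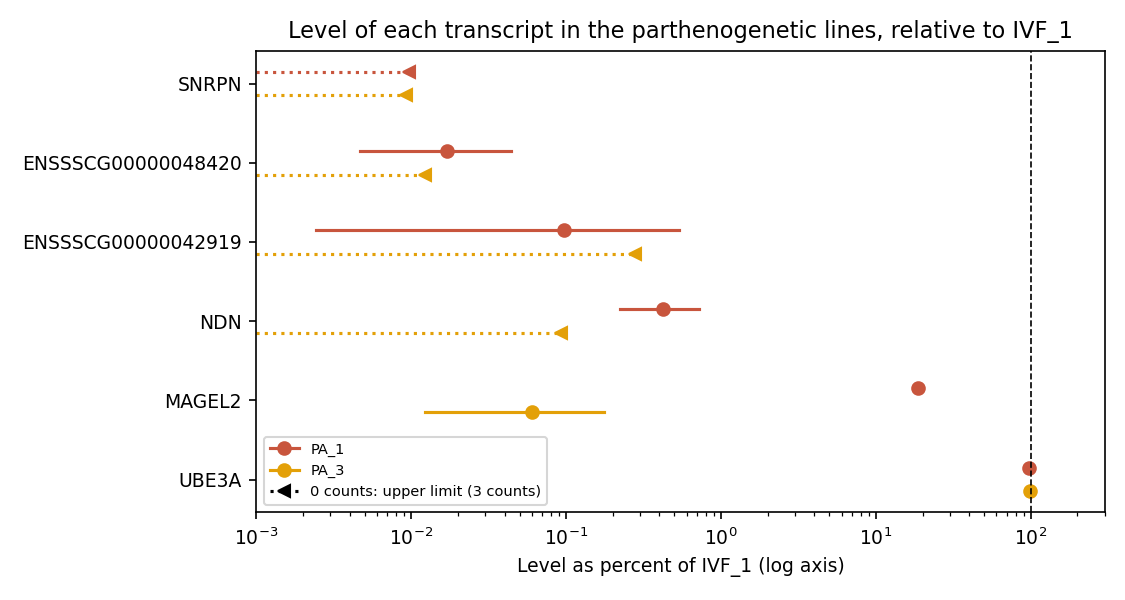
Level of each gene in PA_1 and PA_3 as percent of IVF_1 (log axis), from counts summed over the 2 libraries of a line, with exact 95% counting intervals as bars and arrowheads for the upper limit of 3 counts where a line had 0 counts. In PA_1 the levels ran from under 0.00965% for SNRPN to 18.6% for MAGEL2 and 97.9% for UBE3A, and in PA_3 MAGEL2 stood at 0.0597%.

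UBE3A lies on chromosome 1 at 141887168 to 141997241 (plus strand, 7 transcripts), 415 kb before NDN. It had 116.01 and 129.2 CPM in PA_1, 124.3 and 119.2 CPM in PA_3, and 125.0 and 122.4 CPM in IVF_1. The libraries of the 3 lines overlapped. The log2 fold change was -0.01 (SE 0.0725, edgeR adjusted p = 0.9) in PA_1 against IVF_1 and -0.02 (SE 0.0723, edgeR adjusted p = 0.81) in PA_3 against IVF_1. The 95% intervals of the fold were 0.89 to 1.1 for PA_1 and 0.886 to 1.09 for PA_3, so that a change of 1.5-fold either way lies outside both. The sign of these small differences depended on the scaling and on the libraries used. In the authors' TPM, UBE3A was at 47.0 and 51.1 TPM in PA_1, 41.4 and 38.5 TPM in PA_3, and 49.9 and 49.2 TPM in IVF_1. The lower TPM in PA_3 went with a larger share of TPM in mitochondrial genes, 33.2 and 32.6% in PA_3 against 18.4 and 20.1% in IVF_1. With TPM rescaled over the other genes, an alternative chosen after seeing the data, UBE3A stood at 57.9 and 66.0 TPM in PA_1, 61.9 and 57.1 TPM in PA_3, and 61.2 and 61.6 TPM in IVF_1.

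PA_1 and PA_3 were also compared directly. Of the 6 genes, 2 were called higher in PA_1 than in PA_3, MAGEL2 and NDN (1 with these lines fitted alone), where 17.8% of all tested genes were called higher and 36.8% either way. The 894 MAGEL2 counts of PA_1 against 3 in PA_3 gave a level of 31200% of PA_3, with an exact 95% counting interval of 10600 to 152000% (edgeR adjusted p = 6.5e-13). NDN, with 13 counts in PA_1 against 0 in PA_3, was at least 4.54-fold higher in PA_1 (edgeR adjusted p = 0.0017), but it was under the filter's minimum in all 4 PA libraries and was not kept when these lines were fitted alone, so that its p is given as a description. ENSSSCG00000048420, with 4 counts against 0, was not called (edgeR adjusted p = 0.058). It too was under the filter's minimum in all 4 PA libraries and entered the fit through IVF_1 alone, so its p is a description. Without PA_1 replicate 1, which left the 3 counts of replicate 2, its log2 fold change was 4.77, against 3.95 over all libraries. ENSSSCG00000042919, with 1 count against 0, was not called either (edgeR adjusted p = 0.35), and SNRPN had no count in either line. UBE3A in PA_1 was within 0.906 to 1.12 times PA_3 (95% interval, edgeR adjusted p = 0.95).

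The neighbours NDN and MAGEL2 did not keep the same proportion in PA_1 as in IVF_1. There were 89.8 and 50.7 MAGEL2 counts per NDN count in PA_1, against 1.53 and 1.57 in IVF_1, while in PA_3 NDN had none. The PA_1 ratios rest on 6 and 7 NDN counts, so their size is imprecise. With 2 libraries against 2, no exact permutation test can give a p below 0.333. Relative to UBE3A in TPM, MAGEL2 stood at a ratio of 0.168 and 0.157 in PA_1, of 0.000967 and 0 in PA_3, and of 0.838 and 0.847 in IVF_1.

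The genes ran in a clear order per length in IVF_1. SNRPN was highest at 451.5 ± 2.21 TPM, followed by ENSSSCG00000048420 at 99.9 ± 6.38 TPM, NDN at 76.4 ± 1.56 TPM, UBE3A at 49.6 ± 0.516 TPM, MAGEL2 at 41.75 ± 0.113 TPM and ENSSSCG00000042919 at 11.6 ± 0.651 TPM (SD, n = 2 libraries). No neighbouring pair in that order had overlapping libraries. In PA_1 the order was UBE3A at 49.0 ± 2.93 TPM, MAGEL2 at 7.97 ± 0.106 TPM and NDN at 0.25 and 0.45 TPM, with the long non-coding RNAs below and overlapping each other. In PA_3 UBE3A led at 39.9 ± 2.02 TPM, and of the others MAGEL2 alone had any TPM, 0.04 in replicate 1.

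A line with at most 3 counts in a gene that IVF_1 expressed was rare. Of 10787 tested genes with at least 5 CPM in IVF_1, 11 (0.102%) had at most 3 counts over PA_1, among them SNRPN and ENSSSCG00000042919. The same held for 19 genes (0.176%) over PA_3, and these included SNRPN, ENSSSCG00000048420, ENSSSCG00000042919, NDN and MAGEL2. For 8 genes (0.0742%) it held over both PA lines, again with SNRPN and ENSSSCG00000042919 among them. The genes named here, all but MAGEL2, passed the filter through IVF_1 alone. Their place among these genes restates the levels above and is not used as support.

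Genes whose levels ran most like each one over the 6 libraries were found by the distance between CPM values set to percent of the highest line's mean, among 10860 named genes that reached 5 CPM in a line. For SNRPN these were SGCE, PEG10 and NNAT, at distances of 0.481, 1.78 and 2.42 percentage points. The same 3 genes came nearest to ENSSSCG00000048420 and to ENSSSCG00000042919, led by NNAT at 1.31 and 0.57. NDN ran closest to DLK1 at 2.25 and KBTBD6 at 2.42. For a gene near 0 in both PA lines, this scaling puts the PA values near 0 and the IVF_1 mean at 100%. Such genes lie close together by construction, so these distances are a description and not support for a shared pattern. MAGEL2, with its intermediate level in PA_1, was nearest to TP73 at 13.8, which held 14.7% of its highest level in PA_1 and 4.7% in PA_3. UBE3A ran closest to EIF1B at 3.2 and VPS4B at 3.23.

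On chromosome 1 the interval between UBE3A and NDN holds 12 gene rows. Of these, 8 are SNORD115, small nucleolar RNAs that in human lie between the SNORD116 array and UBE3A, and all 8 had 0 counts in all libraries. The long non-coding row ENSSSCG00000050514, on the minus strand opposite to UBE3A at 142034421 to 142082626, holds 2 of the SNORD115 rows and was picked out after its values were seen. It had 0 and 0 counts in PA_1, 0 and 0 counts in PA_3, and 3 and 6 counts in IVF_1, or at least 4.51-fold lower in PA_1 and at least 4.72-fold lower in PA_3 than in IVF_1. Both bounds take the few IVF_1 reads as exact. The row did not pass the filter and was not tested. MKRN3, a ring finger gene 42.0 kb beyond MAGEL2 that is paternally read in human, had 3 and 0 counts in PA_1, 0 and 1 counts in PA_3, and 0 and 1 counts in IVF_1, too few to compare. NPAP1, a neighbour in human, lies far from these genes in the pig build, at 233074855 to 233083301 of chromosome 1, and had 0 counts throughout. ENSSSCG00000004831, on the strand opposite to UBE3A and overlapping its start, had 8 and 1 counts in PA_1, 1 and 6 counts in PA_3, and 4 and 0 counts in IVF_1. The other unnamed rows next to these genes, ENSSSCG00000043519, ENSSSCG00000046956 and ENSSSCG00000051103, had at most 3 counts in any library, and the small nucleolar RNA ENSSSCG00000026014 had 0.

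Genes that flank the region in human, most of them not imprinted, were counted as a list of 13, of which 10 were in the table and 8 were tested; SNURF, SNHG14 and OCA2 were not analysed here. Where a count of 0 over all 6 libraries is given for 1 direction of a list, 0 genes had an unadjusted p below 0.05 in that direction in edgeR and DESeq2 called 0. In PA_1 against IVF_1, where 15.3% of all tested genes were called higher and 16.1% lower, 0 of the 8 were called higher and 2 lower. The median log2 fold change was -0.16 against 0.0034 over all tested genes. Both calls were small. GABRA5, a GABA receptor subunit gene on chromosome 1, changed by -0.43 on the log2 scale (edgeR adjusted p = 0.037), and its call ended without PA_1 replicate 1 (adjusted p = 0.35), IVF_1 replicate 1 (0.18) or IVF_1 replicate 2 (0.13), under DESeq2 (0.1) and with the 2 lines alone (0.062). NIPA2, a magnesium transporter gene on pig chromosome 15, changed by -0.26 (edgeR adjusted p = 0.03), and its call ended without the same libraries (adjusted p = 0.17, 0.22 and 0.092), under DESeq2 (0.056) and with the 2 lines alone (0.051).

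In PA_3 against IVF_1, where 25.9% of all tested genes were called higher and 26.2% lower, 1 of the 8 was called higher and 2 lower. The median log2 fold change was 0.0074 against 0.0041 over all tested genes. GABRA5 was the one called higher, at 20.04 ± 1.32 CPM in PA_3 and 13.6 ± 0.214 CPM in IVF_1 (SD, n = 2 libraries each; log2 fold change 0.56, edgeR adjusted p = 0.0031). Between the PA lines GABRA5 was lower in PA_1 than in PA_3 by a log2 fold change of -0.99 (edgeR adjusted p = 3.3e-05), and no other gene of the 8 was called. NIPA2 was lower in PA_3 than in IVF_1 (log2 fold change -0.34, edgeR adjusted p = 0.0035), but not without PA_3 replicate 2 or IVF_1 replicate 1 (adjusted p = 0.054 each). ATP10A, a phospholipid flippase gene, was at 0.497 ± 0.0504 CPM in PA_3 and 1.16 ± 0.157 CPM in IVF_1 (edgeR adjusted p = 0.022). That call ended without PA_3 replicate 1 (adjusted p = 0.11), PA_3 replicate 2 (0.074), IVF_1 replicate 1 (0.15) or IVF_1 replicate 2 (0.056), and under DESeq2 (0.13). GABRG3, HERC2, NIPA1, CYFIP1 and TUBGCP5 were not called in any of the 3 comparisons. HERC2, which encodes a ligase that binds UBE3A, was at 133.8 ± 4.88 CPM in PA_1, 130.7 ± 0.652 CPM in PA_3 and 124.2 ± 3.09 CPM in IVF_1.

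SNRPB encodes SmB, the protein whose place SmN takes, and is a close paralog of SNRPN, so reads may be split between the genes by the authors' counting. SNRPB had 5895 and 3376 counts in PA_1 and 4932 and 5519 in PA_3, and no read there was counted to SNRPN. Whether SNRPN reads of IVF_1 were counted to SNRPB was not tested. SNRPB was at 207 and 183 TPM in PA_1, 172 and 173 TPM in PA_3, and 233 and 216 TPM in IVF_1. In CPM after TMM scaling it was at 191.9 ± 11.14 CPM in PA_1, 208.5 ± 2.21 CPM in PA_3 and 224.6 ± 13.4 CPM in IVF_1, so that the order of the PA lines turned. With SNRPN at 0 in the PA lines, the sum of SNRPN and SNRPB was 195 ± 16.8 TPM in PA_1, 172.6 ± 0.849 TPM in PA_3 and 676 ± 9.4 TPM in IVF_1 (SD, n = 2 libraries). SNRPN made up 65.9 and 67.7% of that sum in IVF_1. SNRPB itself was called higher in neither PA line. Its log2 fold change was -0.23 in PA_1 against IVF_1 (edgeR adjusted p = 0.019), a call that ended without PA_1 replicate 2 (adjusted p = 0.059) or IVF_1 replicate 1 (0.27), and -0.11 in PA_3 against IVF_1 (edgeR adjusted p = 0.2).

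**Figure D4:**
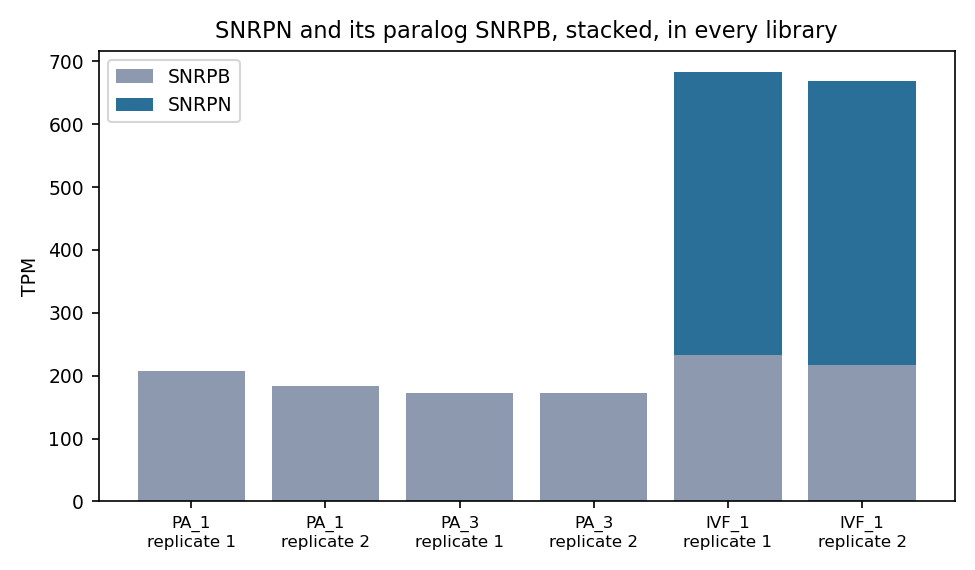
TPM of SNRPN stacked on that of its paralog SNRPB in each library of PA_1, PA_3 and IVF_1. The bars of the PA libraries hold SNRPB alone and end between 172 and 207 TPM, while those of IVF_1 reach 683 and 669 TPM.

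Against IVF_1, 15.3% of all tested genes were called higher and 16.1% lower in PA_1, and 25.9% higher and 26.2% lower in PA_3. Of 10 genes for Sm proteins and for their assembly onto small nuclear RNAs, 0 were called higher and 3 lower in PA_1 against IVF_1 (median log2 fold change -0.15). That 3 became 0 without IVF_1 replicate 1, where SNRPF, SNRPB and SNRPD3 all lost their calls, and 5 without PA_1 replicate 2. In PA_3 against IVF_1, 0 were called higher and 5 lower (median -0.17), or 3 lower without PA_3 replicate 2 or IVF_1 replicate 1. SNRPD3, a core Sm protein gene, changed by -0.31 in PA_1 (edgeR adjusted p = 0.0038, or 0.057 without IVF_1 replicate 1) and by -0.36 in PA_3 (edgeR adjusted p = 0.00055). PRMT5, which methylates Sm proteins, was lower in PA_3 at 173.3 ± 6.63 CPM against 226.6 ± 1.68 CPM in IVF_1 (edgeR adjusted p = 0.00013), and SNRPD1, another core Sm protein gene, was at 104.5 ± 7.59 CPM in PA_3 and 144.6 ± 6.18 CPM in IVF_1 (edgeR adjusted p = 0.00029).

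Among the other members of the MAGE family, to which NDN and MAGEL2 belong, 3 of 8 listed were measured. Against IVF_1, 15.3% of all tested genes were called higher and 16.1% lower in PA_1, and 25.9% higher and 26.2% lower in PA_3. MAGED1 was higher in both PA lines, at 374.9 ± 19.3 CPM in PA_1, 338.0 ± 7.23 CPM in PA_3 and 278.8 ± 0.349 CPM in IVF_1 (edgeR adjusted p = 8.9e-05 and 0.0017 against IVF_1). MAGEH1 was higher in PA_3, at 10.8 ± 0.161 CPM against 6.05 ± 0.784 CPM in IVF_1 (edgeR adjusted p = 0.00027), and MAGEF1 was not called. With PA_3 and IVF_1 fitted alone, all 3 measured genes, MAGEF1 included, were called higher in PA_3. Of 10 measured genes for MAGEL2's partners, the WASH complex and retromer, 1 was called higher in PA_1 against IVF_1 and 0 lower. This was WASHC5, a WASH subunit gene, with a log2 fold change of 0.31 (edgeR adjusted p = 0.0074, or 0.14 without IVF_1 replicate 1), and 2 were called higher without PA_1 replicate 1 or IVF_1 replicate 2. In PA_3 against IVF_1 edgeR called 0 of the 10, 0 had an unadjusted p below 0.05 and DESeq2 called 0, while 1 was called higher without PA_1 replicate 1 or without PA_1 replicate 2.

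Proteins reported to bind or act with necdin made a list of 10. Against IVF_1, 15.3% of all tested genes were called higher and 16.1% lower in PA_1, and 25.9% higher and 26.2% lower in PA_3. Of the 10, 2 genes were called higher and 3 lower in PA_1 against IVF_1, and 2 higher and 5 lower in PA_3 against IVF_1. In PA_1 this became 1 higher and 1 lower without IVF_1 replicate 1, where E2F4, SIRT1 and BBS4 lost their calls, 1 higher and 2 lower without IVF_1 replicate 2, and 1 higher and 3 lower without PA_3 replicate 1 or without PA_3 replicate 2. In PA_3 it became 0 higher and 3 lower without IVF_1 replicate 2, and 1 higher and 5 lower without PA_3 replicate 1. FOXO1, a transcription factor gene, was lower in both, at 61.1 ± 0.511 CPM in PA_1, 54.9 ± 5.39 CPM in PA_3 and 103.6 ± 0.343 CPM in IVF_1 (edgeR adjusted p = 2e-06 and 8.9e-08). FEZ1, which encodes a kinesin adaptor of growing axons, was higher in PA_1 at 35.9 ± 2.68 CPM against 14.9 ± 1.07 CPM in IVF_1 (edgeR adjusted p = 2.7e-07). It was also called higher in PA_3, at 19.8 ± 1.25 CPM (log2 fold change 0.40, edgeR adjusted p = 0.0072). That fold change ran from 0.33 to 0.48 over fits without 1 library. Of 11 genes related to UBE3A, 2 were called higher and 2 lower in PA_1 against IVF_1, and 3 higher and 3 lower in PA_3 against IVF_1. Without IVF_1 replicate 1, and likewise without IVF_1 replicate 2, the PA_1 count was 1 higher and 0 lower, with the calls of UBE3C, UBE2L3 and UBE2D3 lost, and without PA_1 replicate 1 it was 1 higher and 2 lower. UBE3B, a ligase gene of the same HECT class, was at 84.2 ± 4.91 CPM in PA_1, 103.1 ± 3.34 CPM in PA_3 and 63.9 ± 2.36 CPM in IVF_1 (edgeR adjusted p = 0.00079 and 1.2e-06).

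Factors that keep or read imprints were a list of 10, with 8 tested. Against IVF_1, 15.3% of all tested genes were called higher and 16.1% lower in PA_1, and 25.9% higher and 26.2% lower in PA_3. Of the 8, 3 were called higher and 0 lower in PA_1 against IVF_1, and 1 higher and 3 lower in PA_3 against IVF_1. In PA_1 this became 1 higher without IVF_1 replicate 1, 5 higher without PA_1 replicate 2, and 2 higher and 1 lower without PA_1 replicate 1. In PA_3 the number higher was 0 without IVF_1 replicate 1 and 3 without PA_1 replicate 1 or without PA_1 replicate 2. ZFP57, a zinc finger protein that protects methylation at imprinting centres, was at 9.3 ± 1.13 CPM in PA_1 and 1.4 ± 0.321 CPM in IVF_1 (log2 fold change 2.72, SE 0.238, edgeR adjusted p = 2.8e-07), and at 2.23 ± 0.608 CPM in PA_3 it was not called against IVF_1 (edgeR adjusted p = 0.058). DNMT1, the maintenance DNA methyltransferase gene, was lower in PA_3 at 212.2 ± 1.1 CPM against 301.5 ± 0.36 CPM in IVF_1 (edgeR adjusted p = 5e-06). UHRF1, which brings DNMT1 to newly copied DNA, was at 169.5 ± 12.7 CPM in PA_1, 108.1 ± 6.91 CPM in PA_3 and 137.1 ± 1.76 CPM in IVF_1. It was called higher in PA_1 (edgeR adjusted p = 0.0045, or 0.074 without IVF_1 replicate 1) and lower in PA_3 (edgeR adjusted p = 0.0011). DNA methylation was not measured.

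**Figure D5:**
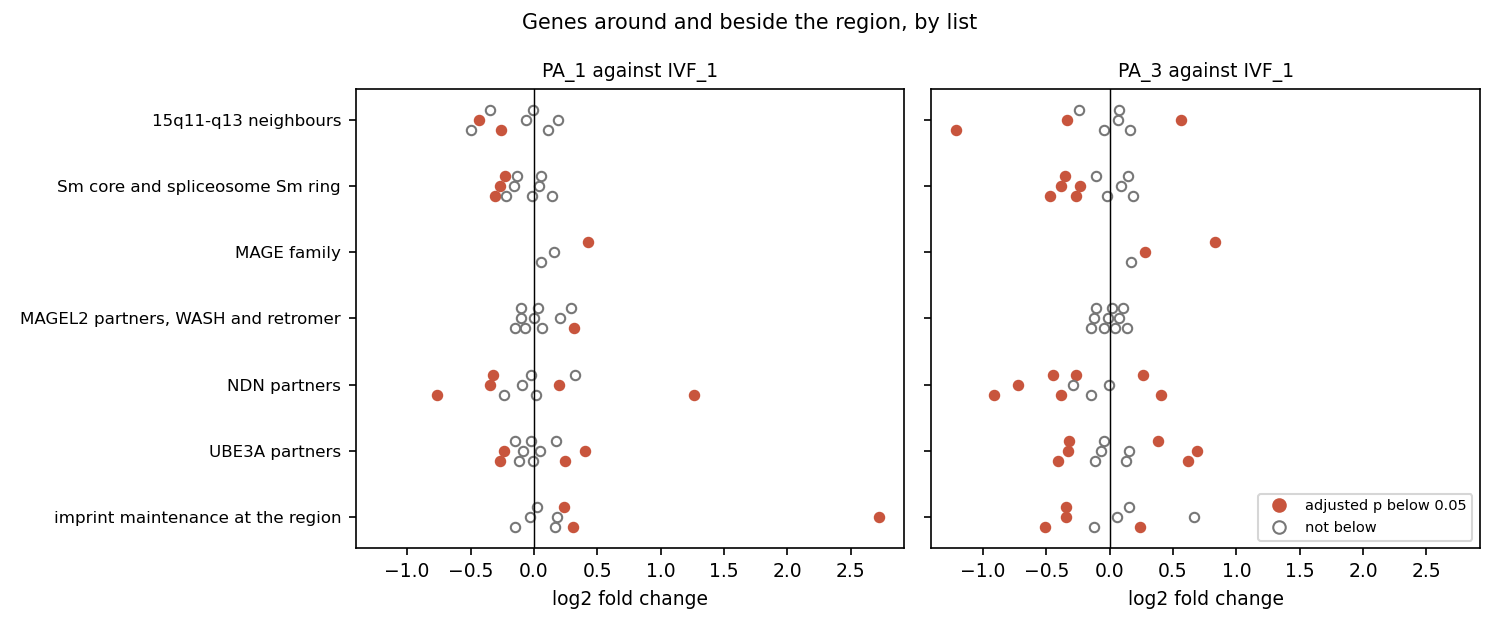
Log2 fold change of each tested gene of 7 lists, in PA_1 against IVF_1 on the left and in PA_3 against IVF_1 on the right, with filled circles for an edgeR adjusted p below 0.05. The list named 15q11-q13 neighbours holds the genes that flank the region in human. ZFP57 at 2.72 and FEZ1 at 1.26 in PA_1 stand farthest to the right, and ATP10A at -1.21 in PA_3 farthest to the left.

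The lines differed in cell type markers as well, and the part of these differences in the levels above was not tested. In bulk RNA, fewer cells of a type and less RNA per cell cannot be told apart. Against IVF_1, 15.3% of all tested genes were called higher and 16.1% lower in PA_1, and 25.9% higher and 26.2% lower in PA_3. POU5F1, the defining pluripotency factor gene, was at 608 to 880 CPM in all 6 libraries. It was called lower in PA_1 than in IVF_1, at 637.0 against 810.6 CPM (edgeR adjusted p = 0.0015), and was not called in PA_3 (edgeR adjusted p = 0.63). NANOG was lower in both, at 30.6 CPM in PA_1, 10.6 CPM in PA_3 and 75.7 CPM in IVF_1 (edgeR adjusted p = 5e-07 and 6.3e-11). The summed level of 12 pluripotency markers ran from 3680 to 3870 CPM in PA_1, from 3760 to 3820 CPM in PA_3 and from 5740 to 5800 CPM in IVF_1. Of the 12, 1 was called higher and 6 lower in PA_1, and 2 higher and 7 lower in PA_3 against IVF_1. Of 12 fibroblast markers, which feeder cells would bring, 11 were in the table and summed to 147 to 157 CPM in PA_1, 137 to 144 CPM in PA_3 and 157 to 158 CPM in IVF_1. These sums were carried by COL5A1 at 80.3 ± 2.09 CPM in PA_1, 74.3 ± 2.22 CPM in PA_3 and 73.5 ± 0.262 CPM in IVF_1, and by COL1A1 at 35.1 ± 3.76 CPM in PA_1, 35.8 ± 2.53 CPM in PA_3 and 38.5 ± 1.66 CPM in IVF_1. Of the 8 fibroblast markers tested, 1 was called lower in PA_1, and 1 was called higher and 4 lower in PA_3 against IVF_1. PRRX1 was lower in both, at 8.37 ± 2.5 CPM in PA_1, 3.44 ± 0.412 CPM in PA_3 and 17.5 ± 0.542 CPM in IVF_1 (edgeR adjusted p = 0.00011 and 3.2e-08), and the untested DCN, LUM and POSTN were below 1 CPM in every library.

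In human and mouse, neurons express SNRPN, NDN and MAGEL2 strongly. The marker counts below stand beside 15.3% of all tested genes called higher and 16.1% lower in PA_1 against IVF_1. In PA_3 against IVF_1 the shares were 25.9% higher and 26.2% lower. The 12 neuron markers summed to 569 to 675 CPM in PA_1, 666 to 698 CPM in PA_3 and 459 to 475 CPM in IVF_1. Of the 12, 5 were called higher and 3 lower in PA_1 (4 and 1 without IVF_1 replicate 1), and 8 higher and 3 lower in PA_3 against IVF_1 (5 and 2 without IVF_1 replicate 2). Of 6 neural progenitor markers, 5 were in the table, and their sum of 493 to 543 CPM in PA_1, 323 to 327 CPM in PA_3 and 419 to 426 CPM in IVF_1 was mostly NES. In PA_3, 4 of the 5 were called lower than in IVF_1 (median log2 fold change -4.36), with PAX6 at 0.295 ± 0.121 CPM in PA_3 and 47.3 ± 1.37 CPM in IVF_1, and LHX2 at 0.628 ± 0.295 CPM in PA_3 and 21.9 ± 0.231 CPM in IVF_1. In PA_1, 2 of the 5 were called higher, PAX6 and SIX3, and FABP7 lower. The 8 trophoblast markers summed to 606 to 612 CPM in PA_1, 717 to 821 CPM in PA_3 and 1300 to 1440 CPM in IVF_1, with 3 of the 5 tested called lower in each PA line and CDX2 and HAND1 at 0 in all libraries. The 7 hypoblast markers summed to 53.0 to 54.2 CPM in PA_1, 97.2 to 105 CPM in PA_3 and 55.8 to 58.0 CPM in IVF_1, of which APOA1 made up 45.4 ± 0.254 CPM in PA_1, 73.3 ± 1.16 CPM in PA_3 and 40.9 ± 1.1 CPM in IVF_1. GATA4, GATA6, SOX17 and HNF4A were called lower in PA_1 than in IVF_1, 4 of the 7 (2 without IVF_1 replicate 2), with GATA4 at 0.0545 ± 0.0771 CPM in PA_1 and 4.0 ± 0.358 CPM in IVF_1. In PA_3 against IVF_1, 2 of the 7 were called higher, APOA1 and FOXA2, and 2 lower, GATA4 and GATA6 (1 lower without PA_3 replicate 1 or IVF_1 replicate 2).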

How the data were processed

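Per the labels' protocols, stranded paired-end libraries were made from oligo(dT)-selected RNA. Reads were trimmed with cutadapt 2.8 and aligned with STAR 2.7.1a to Sscrofa11.1, per the submitters' processing notes; what counted the reads, on which annotation and with which strand rule, is not given in the sources used here. Raw counts per gene, RPKM and TPM were deposited by the authors in 1 table. The deposited counts were used for all tests. The authors' TPM was used for levels between genes, and the deposited RPKM only to check units, since TPM equalled rescaled RPKM within 0.12%. A further 54 columns of per-sample values were not used. Gene names came from the table or from lists of gene IDs.

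Counts were fitted with edgeR 4.0.16 in R 4.3.3 (filterByExpr with a count minimum of 10, TMM, robust glmQLFit, two-sided glmQLFTest) over all 6 libraries with 1 coefficient per line, which left 3 residual degrees of freedom. Intervals of a fold use the moderated degrees of freedom, and those of a single level are exact (Clopper-Pearson) 95% counting intervals. The script was tested on simulated data. The alternatives were DESeq2 1.42.0, other scalings, no filter, a replicate block, a fit of 2 lines, and each library left out.

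The genes described and the gene lists were chosen with earlier results of these data known. Beside every gene of the region and its neighbours, up to 3 genes of a list with the smallest adjusted p per comparison are named. A result on 1 gene is not reported here.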

Additional observations from a re-analysis of the deposited data

Results flagged for a closer look

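MAGEL2 and NDN were called different between the PA lines when PA_1 and PA_3 were compared directly. For NDN, with 6 and 7 counts in PA_1 and 0 and 0 in PA_3, the edgeR adjusted p of the difference was 0.0017, and PA_1 was higher in 2 of 2 libraries. For MAGEL2, with 539 and 355 counts in PA_1 and 3 and 0 in PA_3, it was 6.5e-13, and PA_1 was higher in 2 of 2 libraries. NDN was low in both lines relative to its 1090 and 967 counts in IVF_1, and its difference rests on 13 reads. It was under the filter's minimum of 0.47 CPM in all 4 PA libraries, entered the fit through IVF_1 alone and was not kept when PA_1 and PA_3 were fitted alone, so its p is given as a description and not as support.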

How the results depend on the processing

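The 5 genes called lower against IVF_1 stayed lower in PA_1 and in PA_3 under all 12 alternatives run. For the 4 under the filter's minimum in every PA library this was fixed in advance by their levels and is not used as support. The log2 fold change of MAGEL2 in PA_1 stayed between -2.44 and -2.37. Between the PA lines 2 genes were called. With the 2 lines fitted alone it was 1, since the filter no longer kept NDN, and over fits without 1 library it was 2 to 3. UBE3A was called under no alternative, but its small log2 fold change turned sign. In PA_1 against IVF_1 it was 0.0139 with library totals and 0.0011 with the 2 lines alone, and ran from -0.0803 to 0.0625 over fits without 1 library. In PA_3 against IVF_1 it ran from -0.0506 to 0.0091 over such fits. In PA_1 against PA_3 it was -0.0018 with no filter and ran from -0.0574 to 0.0845. Over all genes, 4766 were called in PA_1 against IVF_1, with a range of 2307 (without IVF_1 replicate 1) to 5812, and 2745 without IVF_1 replicate 2. In PA_1 against PA_3, 5595 were called, with a range of 3406 (without PA_3 replicate 2) to 6488. The cause was not tested.

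The replicate numbers did not pair the samples: same-numbered libraries correlated at -0.165 (PA_1 and PA_3), 0.0938 (PA_1 and IVF_1) and -0.101 (PA_3 and IVF_1) in their deviations over 13507 genes. With the replicate number as a block, 4677 genes were called in PA_1 against IVF_1, 7798 in PA_3 against IVF_1 and 5461 in PA_1 against PA_3. The block called 5, 5 and 3 of the 6 genes in these comparisons, the added one being ENSSSCG00000048420 (adjusted p = 0.046). That gene had 4 counts in PA_1 and 0 in PA_3 and entered the fit through IVF_1 alone, so this call is not used as support.

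Depth limits the lowest levels: a line with 0 reads was bounded at 3 counts, a level from 1 to 4 reads has a wide counting interval, and the small nucleolar RNAs could not be measured in poly(A) RNA.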

Other observations

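The long non-coding row ENSSSCG00000033031 on chromosome 1 between UBE3A and NDN, at 142234880 to 142245657 on the minus strand, was picked out after its values were seen. It had 8 and 5 counts in PA_1, 0 and 0 counts in PA_3, and 5 and 3 counts in IVF_1. Its level in PA_1 was 108% of that in IVF_1 (exact 95% counting interval 41.5 to 301%), while PA_3 was at least 4.2-fold lower than IVF_1, and PA_1 was at least 4.54-fold higher than PA_3. Both bounds take the few observed reads as exact. The row did not pass the filter and was not tested. ENSSSCG00000051443, the other long non-coding row between UBE3A and NDN, had 0 counts in PA_1, 0 in PA_3 and 1 in IVF_1.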
